A study of Mus musculus with 4 samples.

Results

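The 44 genes described here act in the cell division cycle. They were taken as a fixed list of symbols and not picked by their values, though with earlier results of these data known. They are 44 of the 34097 genes in each count matrix. Of them, 23 belong to the G2 and mitotic phases (G2/M members), 19 to the G1/S transition and DNA synthesis (S members), and Stmn1 and Hmgb2 were put in neither list. All 44 identifiers were found with the same symbol in the GENCODE M21 annotation of the mouse build mm10, on 16 chromosomes. The cells came from mouse hearts taken out 5 days after transplantation. The labels give 3 allogeneic libraries (replicates 1, 2 and 3, below called allografts 1, 2 and 3), in which donor and recipient differ genetically, and 1 isogeneic library (replicate 2, the isograft), in which they match. The labels name no strain, sex, age, cell sort, drug or genetic change, and no sample label names VISTA, the checkpoint protein of the series title. They do not say whether replicates came from separate animals, and a p-value here therefore reflects variation from library to library alone, which may be technical.

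The cell cycle is driven by waves of transcription. E2F factors, held back by the retinoblastoma family until cyclin D and cyclin E kinases release them, switch on the S members, which license origins, copy DNA and make nucleotides. Later the MuvB complex with B-Myb and FoxM1 switches on the G2/M members, which condense, align and separate chromosomes, and whose promoters are known for the CHR element and for CCAAT boxes bound by NF-Y. Rejecting grafts are known for T cells that divide after meeting donor antigen, and macrophages, endothelial cells and fibroblasts of an injured heart can divide in place.

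Promoter words that differ in frequency between the lists are shown first, since the report compares S with G2/M members throughout. RefSeq promoters (build GRCm38.p6) were matched for 36 of the 44 members. The 250 bases before each start were searched on both strands for the CHR word TTTGAA, the NF-Y word CCAAT and the E2F words TTTCCCGC and TTTGGCGC. The CHR word was in 8 of 19 matched G2/M members (42.1%), in 1 of 16 S members (6.25%) and in 18.3% of 27025 genes. CCAAT was in 17 of the 19 G2/M members (89.5%), in 9 of the 16 S members (56.2%) and in 37.5% of all genes. The E2F words were in 4 of the 16 S members (25.0%; Mcm5, Mcm6, Mcm7 and Cdc6), in 0 of the 19 G2/M members and in 1.51% of all genes. Capitals below mark these words, read 5′ to 3′ on the gene's strand and ending at the base before the start. Cdk1, Cdc20 and Kif11 carry the CHR word beside CCAAT, Ccnb2 carries CCAAT 87, 54 and 21 bases before its start, and Mcm6 and Mcm5 carry the E2F words. A match is a word in a window, not a measured site.
Cdk1, chr10:69352913-69353012, minus strand: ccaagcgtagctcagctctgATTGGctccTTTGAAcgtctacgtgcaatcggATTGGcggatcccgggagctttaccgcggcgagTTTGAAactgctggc
Cdc20, chr4:118437344-118437423, minus strand: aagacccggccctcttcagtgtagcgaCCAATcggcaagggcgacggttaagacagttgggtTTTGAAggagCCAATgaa
Kif11, chr19:37376302-37376381, plus strand: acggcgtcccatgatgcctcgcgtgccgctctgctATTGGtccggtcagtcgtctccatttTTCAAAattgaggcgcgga
Ccnb2, chr9:70421555-70421654, minus strand: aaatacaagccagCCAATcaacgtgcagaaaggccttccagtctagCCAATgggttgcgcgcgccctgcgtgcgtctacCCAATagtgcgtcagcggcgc
Mcm6, chr1:128359706-128359825, minus strand: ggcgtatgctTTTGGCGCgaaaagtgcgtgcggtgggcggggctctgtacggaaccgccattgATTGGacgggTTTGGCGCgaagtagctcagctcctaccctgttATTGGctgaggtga
Mcm5, chr8:75109349-75109508, plus strand: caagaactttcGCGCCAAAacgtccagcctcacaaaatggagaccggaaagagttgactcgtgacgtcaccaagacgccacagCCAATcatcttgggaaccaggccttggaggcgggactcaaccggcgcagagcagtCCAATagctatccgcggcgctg

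The allograft libraries held 51054446 to 63434265 UMIs (unique molecular identifiers, 1 per captured transcript), and the isograft library held 100038951. Filters left 4737 to 10341 cells a library. Library pairs shared 14 to 31 cell barcodes. Cells were put in a class when at least 3 of its marker genes were detected and no other lineage, heart muscle aside, came close. No member gene served as a marker. In every class and library used here, 2 to 6 of the class's own markers stood among its 10 leading genes by fold and 0 markers of another class did. The classes were made with these markers, so this describes them and does not test them. T cells numbered 710, 1207 and 336 in allografts 1, 2 and 3 and 26 in the isograft. Macrophages numbered 1551, 2077 and 371 against 1983, endothelial cells 170, 464 and 497 against 900, and fibroblasts 37, 93 and 1398 against 4608. Allograft 3 stood apart from the other allografts in this makeup, with many more fibroblasts. Cells in no class numbered 1778, 2809 and 2502 against 2243.

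To compare classes at 1 depth, each cell was thinned to 2000 UMIs, shallower cells were left out, and a cell was called dividing when at least 2 different G2/M members were detected. Intervals are exact (Clopper-Pearson, 95%) and cover counting error only. Neutrophils, which do not divide once mature, were taken as the background: 6.06% (2 of 33 cells), 4% (2 of 50) and 0.472% (1 of 212) in the allografts and 3.12% (1 of 32) in the isograft, at median depths of 2319.5 to 2710 UMIs before thinning. These few cells held 862, 4710 and 6123 CPM of G2/M members against 911, where dividing T cells of allografts 2 and 3 held 4037 and 3172. Whether all neutrophils here were mature was not tested. Shares below or near theirs are not told apart from this class.

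Among the 4 classes of each allograft, T cells had the highest share of their own cells dividing. The share was 59.2% (384 of 649 cells, interval 55.3 to 63.0) in allograft 1, 55.4% (581 of 1049, 52.3 to 58.4) in allograft 2 and 31.9% (95 of 298, 26.6 to 37.5) in allograft 3. Allograft 3 lay below the other allografts, outside their intervals, and all 3 lay far above the neutrophil background. The isograft had only 8 T cells deep enough, of which 2 were dividing (25.0%, interval 3.19 to 65.1), so the isograft share was hardly measured. The difference of 23.8 percentage points had an exact two-sided permutation p of 0.25, the smallest that 3 libraries against 1 allow. At 1000 UMIs the shares were 44.9%, 41.2% and 22.2% in the allografts against 0 of 23 cells in the isograft, which allows a share of up to 13.0% (a limit of 3 cells, not an exact interval). Without thinning they were 76.8%, 67.1% and 41.4% against 7.69%.

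**Figure D1:**
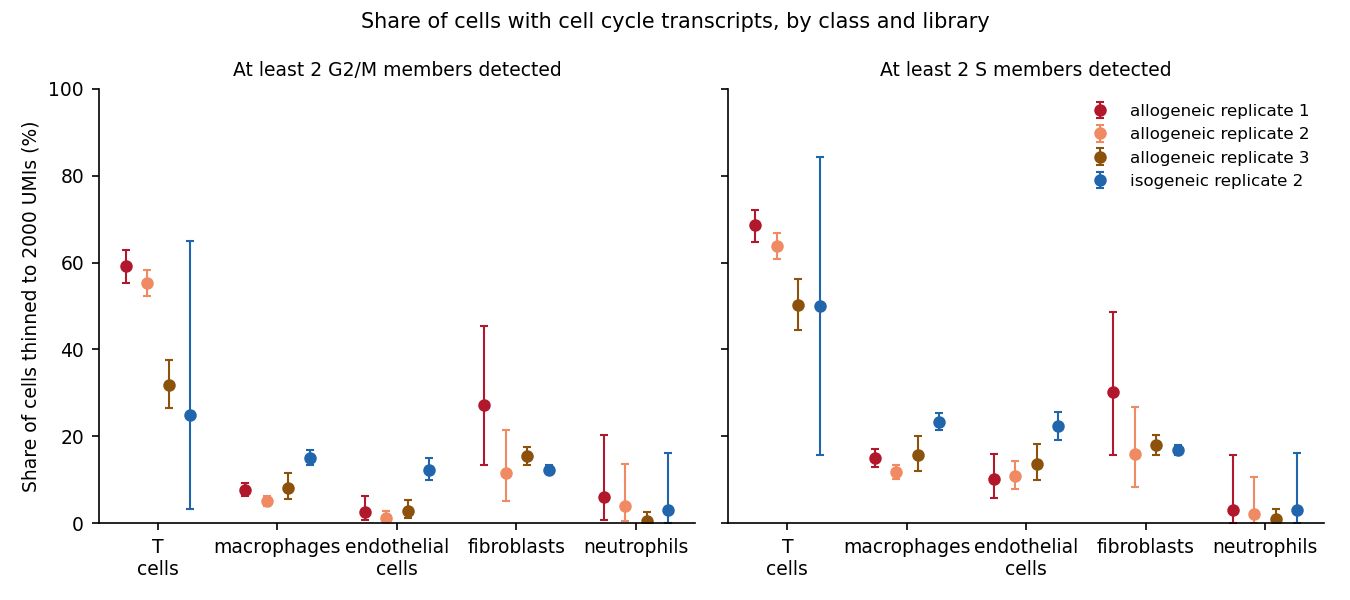
Share of cells with at least 2 G2/M members (left) or at least 2 S members (right) after thinning to 2000 UMIs, in percent, for 5 classes; each point is 1 library and bars are exact 95% binomial intervals. T cells of the allografts sit at 31.9% to 59.2% on the left. The isograft's macrophages (15.0%) and endothelial cells (12.3%) lie above those of every allograft, and neutrophils were taken as the background.

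In macrophages the dividing share was 7.71% (98 of 1271 cells, interval 6.30 to 9.32), 5.04% (83 of 1646, 4.04 to 6.21) and 8.16% (28 of 343, 5.49 to 11.6) in allografts 1, 2 and 3. In the isograft it was 15.0% (268 of 1781, 13.4 to 16.8). The allografts did not overlap with the isograft, and the difference of -8.08 percentage points had the smallest possible exact permutation p, 0.25. The macrophage share lay above the neutrophil interval in allograft 3 (0.0119 to 2.60) and within the wide intervals of the few neutrophils in allografts 1 and 2 (0.743 to 20.2 and 0.488 to 13.7) and in the isograft (0.0791 to 16.2). The direction rests on matched depth: without thinning the shares were 35.1%, 21.8% and 20.8% against 22.9%, a difference of 2.94 points (exact permutation p = 1), with median depths of 9903, 7339 and 7707 UMIs per macrophage in the allografts against 4566 in the isograft. At 4000 UMIs they were 11.5%, 8.58% and 11.3% against 24.2%.

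Endothelial cells also had the larger share in the isograft. Their dividing share was 2.52% (4 of 159 cells, interval 0.690 to 6.32), 1.23% (5 of 408, 0.399 to 2.84) and 2.80% (8 of 286, 1.22 to 5.44) in the allografts. In the isograft it was 12.3% (80 of 650, 9.88 to 15.1), above every allograft by more than the intervals (difference -10.1 points, exact permutation p = 0.25). Beside the neutrophil intervals of the same library, given above, the endothelial share lay within them in allografts 1 and 2 and in the isograft, and above in allograft 3. Cells with 4 or more G2/M members were 0 of 159, 0 of 408 and 1.75% of the allograft endothelial cells and 8.92% of the isograft's. The 8 dividing endothelial cells of allograft 3 had a median of 22269.5 UMIs before thinning, against 3557.5 in its other endothelial cells. In the isograft these medians were 6789.5 and 4243.

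Fibroblasts with G2/M transcripts were found in both kinds of graft. The share was 27.3% (9 of 33 cells, interval 13.3 to 45.5) in allograft 1, 11.6% (8 of 69, 5.14 to 21.6) in allograft 2, 15.4% (177 of 1150, 13.4 to 17.6) in allograft 3 and 12.3% (542 of 4395, 11.4 to 13.3) in the isograft. The groups overlapped, and the difference of 5.75 points did not pass the exact permutation test (p = 0.75). Allografts 1 and 2 held few fibroblasts, which is why their intervals are wide.

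**Figure D2:**
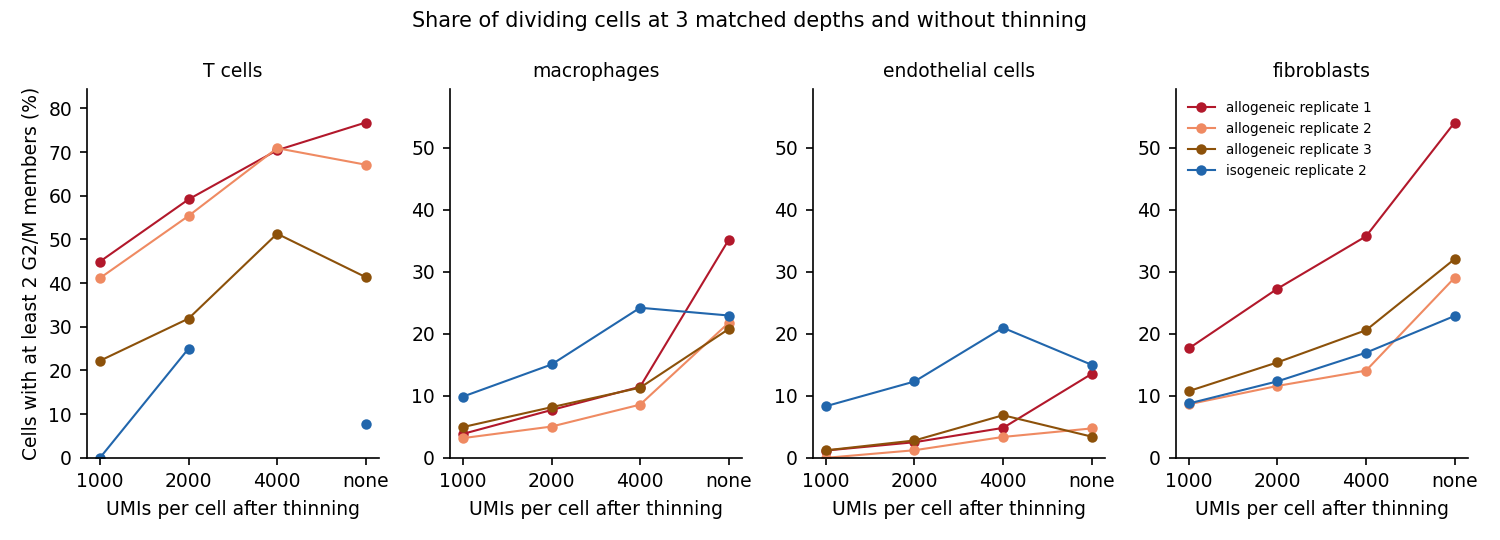
Share of cells with at least 2 G2/M members, in percent, at 1000, 2000 and 4000 UMIs per cell and without thinning (none), for 4 classes and each library; the T cell panel has a taller axis, and the isograft had 0 T cells of 4000 UMIs. The isograft's macrophages lie above every allograft at the 3 matched depths (15.0% against 5.04% to 8.16% at 2000 UMIs) but not without thinning, where allograft 1 reaches 35.1%.

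Where dividing cells sat also differed between libraries. Of all dividing cells at 2000 UMIs, T cells made up 46.0%, 51.2% and 13.0% in allografts 1, 2 and 3 and 0.171% in the isograft. Fibroblasts made up 1.08%, 0.705% and 24.2% against 46.4%, macrophages 11.7%, 7.31% and 3.83% against 23.0%, and endothelial cells 0.479%, 0.441% and 1.09% against 6.86%. Cells in no class held 38.0%, 37.6% and 55.7% of the dividing cells of the allografts and 23.1% of the isograft's, so a large part of the division fell outside the 4 classes. All cells, those in no class included, were dividing at 22.6%, 19.8% and 15.9% against 13.2%. Over cells in a class alone these were 20.4%, 17.4% and 11.6% against 12.6%, so allograft 3 then lay below the isograft.

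Within T cells, those with a Cd8a or Cd8b1 UMI and those with a Cd4 UMI were compared in the allografts. The CD8 cells were dividing at 64.9% (263 of 405), 62.7% (343 of 547) and 39.1% (34 of 87), and the CD4 cells at 46.5% (66 of 142), 46.6% (137 of 294) and 40.2% (33 of 82). The CD8 share was higher in allografts 1 and 2 and not in allograft 3. Cells with UMIs of neither were dividing at 46.7% (35 of 75), 45.9% (78 of 170) and 22.0% (28 of 127), and those with both at 74.1% (20 of 27), 60.5% (23 of 38) and 0% (0 of 2). Before thinning the CD8 cells had medians of 13977, 9853 and 7974 UMIs, and the CD4 cells 9599, 6895 and 7608.5. The subsets were assigned on unthinned UMIs. The mean difference of 11.1 points between CD8 and CD4 cells did not pass the exact sign permutation test (p = 0.5, where 0.25 is the smallest 3 libraries allow). T cells with a UMI of Foxp3, the factor of regulatory T cells, were dividing at 44.2%, 47.4% and 39.4%.

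At 2000 UMIs, more cells had at least 2 S members than at least 2 G2/M members in each of the 4 classes and in every library. At 1000 UMIs the order turned in fibroblasts of allograft 3 (8.78% with S, 10.8% with G2/M) and of the isograft (8.28% and 8.76%). At 2000 UMIs at least 2 S members were seen in 68.6%, 63.9% and 50.3% of allograft T cells, in 15.0%, 11.7% and 15.7% of macrophages, in 10.1%, 10.8% and 13.6% of endothelial cells and in 30.3%, 15.9% and 17.9% of fibroblasts. The isograft had 50% (4 of 8 T cells), 23.4%, 22.3% and 16.8%, and the neutrophils 0.943% to 3.12%. Without thinning, the S share turned direction: it was 55.2%, 42.7% and 49.9% against 39.5% in macrophages (difference 9.70 points, exact permutation p = 0.5) and 64.1%, 42.5% and 20.3% against 36.2% in endothelial cells (6.08 points, p = 0.75). Of cells with at least 2 members of either list, those that reached 2 for S and not for G2/M were 22.6%, 24.0% and 42.8% in allograft T cells and 35.7%, 38.5% and 38.1% in fibroblasts. They were 60.5%, 65.7% and 55.6% in macrophages and 78.9%, 89.8% and 81.4% in endothelial cells, against 50.2% and 53.2% in the isograft. Such a cell may still carry 1 G2/M member: exactly 1 was found in 20.7%, 19.6% and 15.2% of all allograft macrophages and 16.4% of the isograft's.

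Levels were also taken from raw UMIs summed over a class, scaled to the total UMIs of that class in the library (CPM, UMIs per 1000000). Summed G2/M members stood at 3241, 2925 and 1749 CPM in allograft T cells and summed S members at 2773, 2741 and 2193 CPM. Macrophages had 333, 238 and 385 CPM of G2/M against 791 in the isograft, and 389.8, 335 and 479 CPM of S against 782. Endothelial cells had 73.7, 55.4 and 413 CPM of G2/M against 951, and 279, 292 and 425 CPM of S against 734. Allograft 3 was the nearest of the allografts to the isograft in both classes. S exceeded G2/M in the macrophages and endothelial cells of each allograft, and G2/M exceeded S in T cells of allografts 1 and 2, in isograft macrophages and endothelial cells and in fibroblasts of each library. Fibroblasts had 2169, 696 and 618 CPM of G2/M against 697, and 915, 612 and 498 CPM of S against 567, with allograft 1 above all others.

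The log2 ratio of S to G2/M UMIs followed from these sums. In T cells it was -0.23, -0.09 and 0.33 in the allografts and 2.04 in the isograft, where it rested on 37 S and 9 G2/M UMIs (ratio 4.11, exact interval 1.95 to 9.69). That interval covers counting error of UMIs only, and 5 of the 9 came from the isograft's few dividing T cells. In macrophages it was 0.23, 0.50 and 0.32 against -0.02, in endothelial cells 1.92, 2.40 and 0.04 against -0.37, and in fibroblasts -1.24, -0.18 and -0.31 against -0.30. The allografts did not overlap with the isograft in T cells (difference -2.04), macrophages (0.36) and endothelial cells (1.83), with exact permutation p of 0.25, 0.25 and 0.5, and they did in fibroblasts (-0.28, p = 0.75). The fibroblast difference turned to 0.050 without allograft 1 and to 0.093 where cells without a margin to another class were let in. Macrophages not called dividing still carried 310, 271 and 334 CPM of S members in the allografts and 552 in the isograft.

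**Figure D3:**
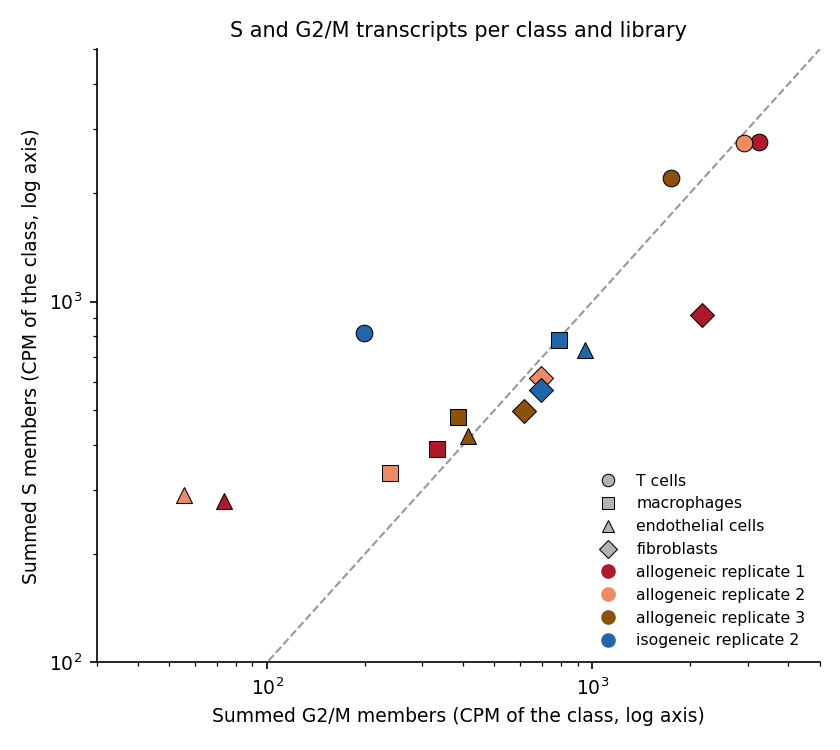
Summed S members against summed G2/M members, both in CPM of the class on log axes, for 4 classes (marker shape) in 4 libraries (colour); the dashed line marks equal sums. T cells of the allografts lie at the top right (1749 to 3241 CPM of G2/M), endothelial cells of allografts 1 and 2 lie farthest left (55.4 and 73.7 CPM), and the isograft's T cells (198 CPM) rest on 9 UMIs.

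Across these 16 class sums, the S and G2/M sums had a Spearman rho of 0.853, a description, since classes of 1 library share its depth. With the sum of the other members, 30 of the 44 members had a rho above 0.8. Tk1, the thymidine kinase, followed the others most closely (0.974), ahead of Stmn1, a microtubule destabiliser (0.938), and Dut, which clears dUTP (0.926). Ccne1, the cyclin of the G1/S switch, followed least (0.571), before E2f1 (0.635) and Tyms, thymidylate synthase (0.671). The highest level of 36 members was in T cells of an allograft, of 7 in fibroblasts of allograft 1, and of Tyms in endothelial cells of the isograft.

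Within the allografts, T cells carried more member transcripts than macrophages, endothelial cells and fibroblasts, the classes compared. Natural killer (NK) cells, 5, 12 and 28 in the allografts, were not fitted. At 2000 UMIs 0% to 40% of them had at least 2 G2/M members, and 8.33% to 66.7% at least 2 S members. Against macrophages 43 of 44 members were higher and 0 lower by edgeR's quasi-likelihood test with library as a block (adjusted p under 0.05), where 31.3% of all genes tested were higher. Against endothelial cells 44 were higher (30.3% of all genes) and against fibroblasts 34 (24.4%). The median log2 difference of the members was 2.60, 3.73 and 1.66, against -0.08, 0.05 and 0.02 over all genes tested. E2f1 was the member not called against macrophages (log2 0.11, SE 0.12). Kif11, the spindle motor, differed most from macrophages (3.53, SE 0.27, edgeR adjusted p = 7.8e-05) and Pclaf, a partner of PCNA, most from endothelial cells (5.36, SE 0.61, edgeR adjusted p = 1.6e-04).

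Against fibroblasts the members differed among themselves. Mki67, the surface protein of mitotic chromosomes, was higher in T cells by 2.39 (SE 0.23), Rrm2, a subunit of ribonucleotide reductase, by 2.24 (SE 0.25), Mcm5 of the replicative helicase by 2.05 (SE 0.24) and Hmgb2, a chromatin protein, by 3.09 (SE 0.18). The mitotic kinase Cdk1 was not, at -0.24 (SE 0.24, edgeR adjusted p = 0.41). Cdk1 stood at 99.6, 89.5 and 62.7 CPM in T cells and 183, 63.3 and 55.0 CPM in fibroblasts, so the classes overlapped. Beside Cdk1, 9 other members did not pass: the G2/M members Aurka, Bub1b, Cdc20, Cenpf, Kif20a, Prc1 and Ube2c and the S members E2f1 and Tyms. Of the S members 17 of 19 were higher in T cells than in fibroblasts, and of the G2/M members 15 of 23.

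Of the 36 other cell cycle genes taken as a pathway list (cyclins D, kinases, inhibitors, the retinoblastoma and E2F families, FoxM1, B-Myb, Myc and checkpoint genes), 27 were higher and 4 lower in T cells than in macrophages, where 36.6% of all genes tested were lower. Against endothelial cells 26 were higher and 4 lower (30.1% of all genes lower), and against fibroblasts 18 and 4 (30.1% lower).

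In T cells of the allografts against the isograft, the edgeR quasi-likelihood test called 0 of 44 members and 0% of all 12475 genes tested, with 25 members at an unadjusted p under 0.05. DESeq2 called 7 members, where 79 of 12475 genes were higher. Without a filter on low counts edgeR called 5, where 55 of 20804 genes were higher. Without allograft 3 edgeR also called members, and calls over all genes rose too. The members called in these fits were all higher in the allografts. The isograft's T cells held 45364 UMIs in all, and 23 members had no UMI there. In simulated tables of this comparison 1.16% of genes changed by 2 on the log2 scale were recovered. Allograft and isograft values did not overlap for 42 members, all higher in the allografts, where 60.0% of all genes lay that way.

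Mki67 stood at 354, 301 and 146 CPM in allograft T cells and 66.1 CPM (3 UMIs) in the isograft, a ratio of pooled counts of 4.60 (interval 1.57 to 22.3). Top2a, the topoisomerase that untangles chromosomes, stood at 373, 305 and 181 CPM against 22.0 (1 UMI), a ratio of 14.4 (2.59 to 571). Both were lowest in allograft 3 and higher in every allograft than in the isograft. Cdk1 (ratio 4.11, interval 0.736 to 162) and Mcm5 (5.07, 0.910 to 200) also had 1 isograft UMI, and their intervals include 1. These 4 intervals pool the allografts and cover counting error of UMIs only, not the spread between libraries or cells. None of the 4 genes passed the edgeR test. Rrm2 stood at 139, 135 and 174 CPM with no isograft UMI, so it was at least 2.26-fold higher, taking 3 UMIs in the isograft (66.1 CPM) as the floor. The same bound was 4.67 for Cenpa, the centromeric histone, and 3.71 for Ube2c, a ubiquitin-conjugating enzyme of mitotic exit. Ccnb1, the cyclin partner of Cdk1, stood at 56.1, 43.8 and 35.3 CPM, under that floor, so no fold is given. Pcna, the sliding clamp of DNA polymerase, was 251 ± 17.6 CPM (SD, n = 3) against 176 (8 UMIs), with log2 0.88 (edgeR adjusted p = 0.53), where the median over all genes tested was 1.29.

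Markers of other lineages were also present in the T cells. The 8 macrophage markers summed to 49.6 to 313 CPM in the allografts and 110 in the isograft (5 of 8 at 0 there). The 8 fibroblast markers summed to 17.3 to 201 CPM against 529 (3 of 8 at 0). The 6 monocyte markers summed to 308 to 579 CPM against 198, and the 9 endothelial markers to 55.6 to 75.6 against 132. None of the tested markers of these 4 lists passed, and their part in the result was not tested. Of the pathway list 0 of 36 genes passed. Foxm1 (25.1, 20.7 and 13.9 CPM) and Mybl2 (31.3, 30.7 and 22.2 CPM) had no isograft UMI, Ccnd1 stood at 3.38 to 6.59 CPM against 0, Ccnd2 at 87.7 to 191 against 220, Cdkn1a at 78.9 to 98.4 against 88.2 and Myc at 43.1 to 131 against 66.1.

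Macrophages of the allografts carried fewer member transcripts than those of the isograft. The edgeR test called 10 members lower and 0 higher, where 2.01% of all genes tested were lower. The members' median log2 difference was -1.28, against 0.00 over all genes, and 43 of 44 estimates were negative. All 3 allografts lay below the isograft for 41 members, as for 35.1% of all genes, and above it for Ccne1 alone, as for 33.6%. The G2/M members called were Cenpa, Ccna2 (cyclin A2), Cdc20 (activator of the anaphase-promoting complex), Birc5 (survivin) and Ccnb1. The S members called were Dut, Tyms and the helicase subunits Mcm5, Mcm6 and Mcm7.

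Birc5 stood at 40.0, 30.2 and 56.9 CPM in allograft macrophages and 150 CPM in the isograft, and fell by 1.86 on the log2 scale (SE 0.33, edgeR adjusted p = 0.046). Cdc20 stood at 6.11, 4.53 and 8.96 CPM against 25.4 and fell by 2.05 (SE 0.35, edgeR adjusted p = 0.043), the lowest estimate of the 10. No allograft reached the isograft for either gene. Ccna2 stood at 8.79, 7.20 and 11.4 CPM against 30.8, Ccnb1 at 5.48, 4.72 and 8.04 against 19.3, and Cenpa at 40.1, 31.3 and 34.6 against 85.5. Allograft 3 was highest of the allografts for Birc5, Cdc20, Ccna2 and Ccnb1, and not for Cenpa.

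Among S members Dut stood at 34.1, 29.2 and 38.6 CPM against 89.3 and fell by 1.42 (SE 0.19, edgeR adjusted p = 0.029). Mcm5 stood at 18.1, 14.5 and 17.0 CPM against 34.1 and fell by 1.06 (SE 0.19, edgeR adjusted p = 0.048). Mcm6 was at 25.9, 22.0 and 30.3 CPM against 59.5, Mcm7 at 15.1, 14.8 and 9.58 against 40.1, and Tyms at 11.3, 10.7 and 18.5 against 45.1. For these 5 genes the spread among allografts was small beside the gap to the isograft.

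The best-known division markers did not pass in macrophages. Mki67 stood at 44.1, 33.6 and 33.7 CPM against 53.7 (log2 -0.54, SE 0.22, edgeR adjusted p = 0.20) and Top2a at 38.2, 20.9 and 32.8 against 44.4 (-0.56, SE 0.34, edgeR adjusted p = 0.36). Cdk1 was at 16.5, 9.19 and 25.3 CPM against 50.4 (-1.65, SE 0.48), Rrm2 at 11.3, 8.81 and 17.9 against 42.9 (-1.84, SE 0.36) and Pcna at 97.3, 87.5 and 160 against 186 (-0.72, SE 0.36). Stmn1 stood at 72.2, 51.3 and 129 CPM against 396, and Hmgb2 at 181, 141 and 385 against 504. All 3 allografts lay below the isograft for each of these genes. Cdc6 and Ccne2, which act at origin licensing and the G1/S switch, overlapped between groups.

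The call in macrophages depended on single allografts, among members as among all genes. Without allograft 1 or without allograft 2 edgeR called no member, and without allograft 2 no gene at all. Without allograft 3 it called most members, all lower, and many more of all genes. The members' median log2 difference was -1.30, -1.10 and -1.36 without allografts 1, 2 and 3. Over all genes tested it was 0.001, -0.002 and -0.004. DESeq2, with all libraries, called 20 members, all lower, where 536 of 14902 genes were lower. Markers of other cells moved beside it: the 8 fibroblast markers, all detected, summed to 25.2, 25.0 and 231 CPM in the allografts against 305, and the 10 T cell markers to 106, 94.4 and 12.7 CPM against 5.35, and none of either list passed the test. The 6 monocyte markers summed to 1084, 942 and 875 CPM against 162, with 2 called higher, and the 7 dendritic cell markers to 201, 175 and 229.7 against 51.8, with 2 called higher. The 7 neutrophil markers summed to 124, 104 and 124 CPM against 65.2, with 1 called higher. The 8 cardiomyocyte markers summed to 101, 88.1 and 43.6 CPM against 24.5, with 0 called. Of the 8 macrophage markers themselves 1 was called higher and 2 lower. The part of these lists in the result was not tested. With monocytes joined to the macrophages, edgeR called 23 members, all lower, where 606 of 15261 genes were lower. Of the 36 pathway genes 1 rose, where 3.30% of all genes were higher, and 0 fell: Ccnd2, cyclin D2, stood at 40.7, 30.2 and 39.0 CPM against 11.7 and rose by 1.63 (SE 0.25, edgeR adjusted p = 0.037). The inhibitor gene Cdkn1a was at 665, 678 and 304 CPM against 286 and Myc at 6.48, 7.45 and 17.0 against 42.5, neither past the threshold. Ccnd1 (59.7 to 104 CPM against 130), Foxm1 (1.99 to 5.26 against 5.88) and Mybl2 (2.30 to 4.33 against 5.17) did not pass either.

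Endothelial cells of the allografts carried fewer member transcripts as well. The edgeR test called 6 members lower and 0 higher, where 1.86% of all genes tested were lower. The median log2 difference was -2.20 against 0.00 over all genes. All 3 allografts lay below the isograft for 42 members, as for 36.1% of all genes, and for 0 members above it, as for 28.1%. The exceptions were the helicase subunits Mcm3 (21.6, 24.8 and 24.0 CPM against 24.2) and Mcm6 (46.8, 47.6 and 43.4 against 46.2), whose groups overlapped. Mcm5 thus fell in both classes, while Mcm6, which fell in macrophages, had a log2 difference of 0.03 (SE 0.24) in endothelial cells. The test of that difference between classes, given below, called neither.

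The members called were Ccna2, Cdc20, Ccnb2, Aurkb, Ccne2 and Mcm5. Ccna2 stood at 1.17, 1.70 and 8.18 CPM in the allografts against 39.7 in the isograft and fell by 3.43 (SE 0.65, edgeR adjusted p = 0.034). Ccne2, cyclin E2, stood at 1.17, 0.680 and 1.53 CPM against 13.0 and fell by 3.50 (SE 0.60, edgeR adjusted p = 0.024). Ccna2 was highest of the allografts in allograft 3, and Ccne2 was low in all 3. Cdc20 was at 3.51, 2.38 and 10.7 CPM against 43.0, Ccnb2 at 1.75, 2.38 and 10.7 against 46.2, and Aurkb, the kinase of the chromosomal passenger complex, at 1.75, 1.02 and 5.11 against 21.8. Mcm5 stood at 7.02, 8.84 and 10.2 CPM against 29.1 and fell by 1.69 (SE 0.31, edgeR adjusted p = 0.030).

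For the other named members the distance between allografts was large. Mki67 stood at 4.09, 3.06 and 21.0 CPM against 48.3 (log2 -2.38, SE 0.74, edgeR adjusted p = 0.13), Top2a at 7.60, 7.14 and 40.4 against 56.0 (-1.61, SE 0.77) and Cdk1 at 8.77, 3.74 and 36.3 against 72.7 (-2.18, SE 0.81). Ccnb1 was at 0.585, 0.680 and 8.18 CPM against 23.5, Rrm2 at 4.09, 3.06 and 12.8 against 33.2 and Pcna at 59.0, 60.8 and 95.6 against 134. In each of these 6 genes allograft 3 lay between the other allografts and the isograft. The calls changed with the allograft left out, among members as among all genes. The members' median log2 difference was -1.84, -1.75 and -3.17 without allografts 1, 2 and 3. Over all genes tested it was -0.004, -0.006 and 0.003. Where cells without a margin to another class were let in, edgeR called 0 members, with 32 at an unadjusted p under 0.05 and a median log2 difference of -1.91. DESeq2 called 3, all lower, where 175 of 11833 genes were lower.

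Fibroblast markers followed the same order in endothelial cells, with sums of 27.5, 87.3 and 346 CPM in the allografts and 369 in the isograft over 8 of 8 detected markers. T cell markers ran the other way, at 71.9, 78.5 and 15.8 CPM against 2.79. Of the markers that could be tested, 0 of 5 fibroblast and 2 of 5 T cell markers passed, both higher in the allografts. The 8 macrophage markers summed to 396, 403 and 105 CPM against 63.0 and the 7 neutrophil markers to 217, 180 and 138 against 45.1, each with 1 called higher. The monocyte markers summed to 76.6, 71.7 and 151 CPM against 21.8 and the 8 cardiomyocyte markers to 168, 134 and 48.6 against 47.6, each with 0 called. The part of these lists in the result was not tested. In the pathway list 34 of 36 genes were tested, 2 rose (3.07% of all genes were higher) and 2 fell. Rb1, the retinoblastoma gene, stood at 190, 166 and 217 CPM against 65.1 and rose by 1.59 (SE 0.27, edgeR adjusted p = 0.023), and its relative Rbl1 rose by 1.73 (30.4, 26.2 and 31.7 CPM against 9.06). Gmnn, the inhibitor of origin licensing, fell by 1.62 (12.3, 16.3 and 12.8 CPM against 44.4) and Cdkn2d, a kinase inhibitor, by 1.08 (29.8, 30.9 and 33.7 against 68.6). Cdkn1a stood at 851, 1069 and 355 CPM against 175 and Ccnd1 at 839, 758 and 388 against 333, and neither passed. Ccnd2 (64.9 to 87.4 CPM against 71.1), Myc (34.7 to 64.9 against 51.8), Foxm1 (0 to 6.13 against 7.44) and Mybl2 (0.340 to 3.58 against 4.88) did not pass.

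**Figure D4:**
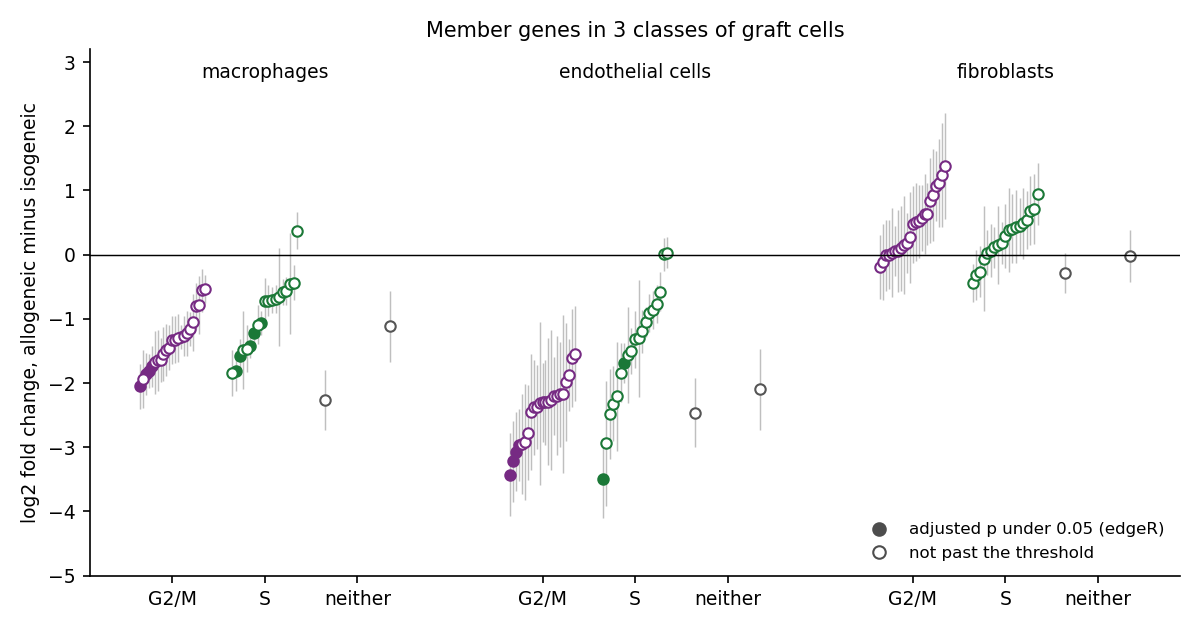
Log2 fold change of each member, allogeneic minus isogeneic, with its standard error, in macrophages, endothelial cells and fibroblasts, by list; filled points passed edgeR's test (10, 6 and 0 members). Points of macrophages and endothelial cells lie mostly below 0 (medians -1.28 and -2.20), while those of fibroblasts lie around 0.28.

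In fibroblasts no member was called. The edgeR test gave 0 of 44, with 0 at an unadjusted p under 0.05, where 2.00% of all genes tested were called. DESeq2 also called 0, where 391 of 15121 genes were higher and 63 lower. In simulated tables of this comparison edgeR recovered 2.86% of genes changed by 1 on the log2 scale and 35.2% of those changed by 2. The members' median log2 difference was 0.28 against -0.02 over all genes. For 12 members all 3 allografts lay higher (24.4% of all genes) and for 1, Tyms, lower (26.4%). Allograft 1, with 37 fibroblasts, stood above the others: Mki67 was at 75.0, 32.5 and 28.9 CPM in the allografts and 25.9 in the isograft, Top2a at 157, 60.6 and 51.2 against 38.1 and Cdk1 at 183, 63.3 and 55.0 against 62.1. Ccnb1 stood at 53.2, 12.3 and 13.1 CPM against 20.01, Mcm5 at 42.3, 17.6 and 13.7 against 15.7, Rrm2 at 38.2, 33.4 and 19.7 against 33.6 and Pcna at 108, 75.6 and 78.0 against 75.0. Allografts 2 and 3 lay above the isograft for Mki67, Top2a and Pcna and below it for Ccnb1 and Rrm2. The members' median log2 difference was -0.07, 0.52 and 0.49 without allografts 1, 2 and 3, against 0.01, 0.02 and 0.03 over all genes. Only without allograft 3 were members called, all higher, and calls over all genes rose most there too.

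Of the pathway list 0 of 36 genes passed in fibroblasts. Ccnd1, cyclin D1, stood at 266, 141 and 65.2 CPM against 42.7 (log2 1.73, SE 0.63, edgeR adjusted p = 0.29), and Mybl2 at 20.5, 9.66 and 4.06 against 2.60. Cdkn1a was at 78.9 to 287 CPM against 89.4, Myc at 48.3 to 150 against 146, Foxm1 at 5.28 to 21.8 against 6.49 and Ccnd2 at 73.9 to 83.2 against 88.7. In the fibroblasts, macrophage markers summed to 111 to 310 CPM in the allografts against 50.7 and T cell markers to 28.6 to 79.1 against 15.0, with 2 T cell markers called higher. Monocyte markers summed to 578 to 1168 CPM against 385, with 0 called, and their part in these values was not tested.

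Whether the difference between grafts itself differed between classes was tested as an interaction with library as a block. Between fibroblasts and macrophages 3 members were called, all with a higher allogeneic effect in fibroblasts, where 0.925% of all genes were: the kinetochore gene Cenpf (log2 2.38, SE 0.50, edgeR adjusted p = 0.034), Mcm7 (2.21, SE 0.44, edgeR adjusted p = 0.029) and Stmn1 (2.06, SE 0.46, edgeR adjusted p = 0.046). Cenpf stood at 136, 44.8 and 28.5 CPM against 27.7 in fibroblasts and at 11.3, 5.83 and 7.73 against 20.9 in macrophages. Between T cells and macrophages edgeR called 0 of 44 members (0% of all genes higher, 0.0129% lower), with 35 at an unadjusted p under 0.05 and 10 by DESeq2. In simulated tables of this test edgeR recovered 0% of genes changed by 1 or 2 on the log2 scale. Without allograft 2 or without allograft 3 edgeR called members, all with a higher effect in T cells, and calls over all genes rose too. Between endothelial cells and macrophages edgeR called 0 (2.54% of all genes), with 15 at an unadjusted p under 0.05 and 0 by DESeq2. Its recovery in simulated tables was 5.62% for a change of 1 and 58.8% for a change of 2. Without allograft 3 edgeR called members, most with the lower effect in endothelial cells, and calls over all genes rose too.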

How the data were processed

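Counts are the deposited matrices of whole UMIs per gene and cell barcode, 1 per library, made with Chromium 3′ v3.1 reagents per the labels' protocols. Cell Ranger 3.1.0 and mm10 are named in the submitters' processing notes, whereas 6.1.0 stands in the deposited matrix headers. The version behind the counts, and how strand was treated, are not given in the sources used here. Barcodes under 500 UMIs, under 300 genes or over 20% mitochondrial UMIs were left out, and the highest Scrublet scores were removed at 0.8% per 1000 barcodes (scanpy 1.11.5, Python 3.11.15). A cell entered 1 of 11 classes when at least 3 of the class's markers were detected, with the highest share of markers, and the best class of another lineage reached at most 50% of that share. Cardiomyocytes were left out of this last rule, as were macrophages, monocytes and dendritic cells among themselves, where the highest share decided.

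For each class, the raw counts of a library's cells were added up and tested with edgeR 4.0.16 (quasi-likelihood test, TMM, filterByExpr, Benjamini-Hochberg over all genes tested; R 4.3.3), and the script was tested on simulated data with 200 changed genes. Each standard error was taken as the log2 change over the root of its F statistic. The isogeneic arm has 1 library, so its spread is taken from the allografts. DESeq2 1.42.0, upper-quartile scaling, no filter, other gates, depths and thresholds, and leaving out each allograft were alternatives. CPM are UMIs per 1000000 of the class, and 3′ counts do not rank genes against each other. Doublets left in a class, and free RNA, were not tested beyond the values given.

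The members, lists and tests were chosen with earlier results of these data known. Values are given for Mki67, Top2a, Cdk1, Ccnb1, Pcna, Mcm5 and Rrm2, for up to 12 further called members with the smallest adjusted p, for Ccnd1, Ccnd2, Cdkn1a, Foxm1, Mybl2 and Myc, and for up to 6 further called pathway genes. In comparisons between classes, examples were chosen after their values were seen.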

Additional observations from a re-analysis of the deposited data

Results flagged for a closer look

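The difference between allogeneic and isogeneic grafts differed between fibroblasts and macrophages for 3 members, by the interaction test in edgeR. On the log2 scale the effect in fibroblasts exceeded that in macrophages by 2.38 for Cenpf, by 2.21 for Mcm7 and by 2.06 for Stmn1. Mcm7 stood at 39.6, 29.9 and 16.7 CPM against 17.3 in fibroblasts and at 15.1, 14.8 and 9.58 against 40.1 in macrophages. Stmn1 stood at 209, 176 and 156 CPM against 205 in fibroblasts and at 72.2, 51.3 and 129 against 396 in macrophages. Without allograft 3 the same test called more members and more of all genes. With DESeq2 and all libraries 1 member was called, where 139 of 17615 genes had the higher effect.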

How the results depend on the processing

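Counts of members called moved as follows. DESeq2 called 7 in T cells, 20 in macrophages and 3 in endothelial cells between grafts, 10 for T cells against macrophages in the test of differing effects and 1 for fibroblasts against macrophages. Without a filter on low counts edgeR called 5, 20, 28 and 1 members in T cells, macrophages, endothelial cells and fibroblasts, and 20, 14 and 17 for the effects of T cells, endothelial cells and fibroblasts against macrophages. With monocytes joined to macrophages 23 were called, and in endothelial cells 0 without the margin between classes (32 at an unadjusted p under 0.05 in edgeR) and 17 after thinning. Calls over all genes tested moved as well: without the filter 686 of 22598 genes were lower in macrophages and 662 of 20279 in endothelial cells. After thinning 302 of 8876 genes were lower in endothelial cells. The causes were not tested. Leaving out each allograft gave 0 to 18 members in T cells, 0 to 41 in macrophages, 1 to 41 in endothelial cells and 0 to 4 in fibroblasts. For effects against macrophages it gave 0 to 32 (T cells), 0 to 33 (endothelial cells) and 4 to 36 (fibroblasts), and within allografts 42 to 43, 44 and 31 to 39 members for T cells against macrophages, endothelial cells and fibroblasts. Calls over all genes also changed with the allograft left out, so these ranges are not particular to the members. T cells thinned to 2000 UMIs were not fitted, with 8 isograft cells, nor was a T cell share at 4000 UMIs, with 0.

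Differences in dividing share ranged, without each allograft, over 18.6 to 32.3 points in T cells, -8.67 to -7.11 in macrophages, -10.4 to -9.65 in endothelial cells and 1.16 to 9.0 in fibroblasts. The macrophage difference reversed without thinning (2.94). The fibroblast S to G2/M ratio ranged from -0.48 to 0.050 without each allograft and reversed to 0.093 without the margin. Leaving out barcodes found in 2 libraries, chosen after seeing the data, reversed no share. In fibroblasts, log2 values reversed without allograft 1 for 4 genes, ranging without each allograft over -0.63 to 0.49 for Ccnb1, -0.086 to 0.82 for Cdk1, -0.084 to 1.00 for Foxm1 and -0.051 to 0.75 for Mcm5. They also reversed without the margin for Ccnb1 (-0.39), and after thinning for Ccnb1 (-0.47), Foxm1 (-0.015) and Mki67 (-0.20). Upper-quartile scaling moved the median of all genes in macrophages to -0.16 and of members to -1.43, and the split of all genes called from 492 higher and 300 lower to 427 and 397. In endothelial cells DESeq2 gave 457 and 175 against 363 and 220. No paired analysis was possible because the groups share only replicate number 2. The 1 isogeneic library, its 26 T cells and the few fibroblasts of allografts 1 and 2 limit every comparison that uses them.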

Other observations

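Monocytes, the blood precursors of many graft macrophages, held few dividing cells in any library. At 2000 UMIs the share with at least 2 G2/M members was 3.92%, 3.03% and 1.47% in allografts 1, 2 and 3 and 1.32% in the isograft, within the range of the neutrophil background. Their summed G2/M members stood at 197, 131 and 136 CPM against 138 in the isograft, without the gap seen in macrophages, and whether the 2 classes differ in this was not tested.

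Hmgb2 was detected in cells that carried few other members. After thinning to 2000 UMIs it was seen in 48.5%, 48.0% and 55.2% of allograft neutrophils and in 81.2% (26 of 32) of the isograft's, while Cdk1 was seen in 0%, 2.00% and 0% against 0%. In T cells of the allografts Hmgb2 was seen in 73.8%, 71.0% and 61.7% and Cdk1 in 14.0%, 10.5% and 7.72%. In endothelial cells Hmgb2 was seen in 7.55%, 5.64% and 12.6% against 28.2% in the isograft. Levels of Hmgb2 alone therefore did not mark dividing cells in the neutrophils of these libraries.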
